A study of Mus musculus with 2 samples.

Results

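Interferon-stimulated genes are the genes that cells switch on when they sense an interferon, and 36 of them were followed here in mouse bone marrow KSL cells, the lineage-negative fraction positive for c-Kit and Sca-1 that is rich in stem cells and multipotent progenitors. A gene counted as measured where the platform annotation gave at least 1 probe set that named it and no other gene, and probe sets of a gene were averaged. This left 32 of the 36 genes, out of 19938 genes measured on the arrays in all. Isg15, Irgm2, Igtp and Gbp2 had only a probe set that also named a second gene and were not analysed here. Of the 32 genes, 27 are best known as induced by type I interferon and 5 as induced by interferon gamma, the type II interferon, although many respond to both.

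The study set KSL cells of Nrf2 KO mice against KSL cells of wild-type mice, both on a C57BL/6J background, 8 to 10 weeks old and untreated. NRF2, encoded by Nfe2l2, is the transcription factor that drives antioxidant genes, and the series asked about its part in the survival of blood stem cells. Marrow of 5 mice was pooled per genotype before sorting, and 1 RNA pool per genotype was hybridised to 1 array. There were therefore no replicates, no difference below has an error of its own, no test was run and no p-value is given. The spread between mice, sorts and amplifications was not measured, and the number of arrays limits the precision.

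Type I interferons bind the receptor chains IFNAR1 and IFNAR2, whose kinases JAK1 and TYK2 phosphorylate transcription factors such as STAT2. With IRF9, STAT2 acts at the interferon-stimulated response element in the promoters of antiviral genes. Interferon gamma binds IFNGR1 and IFNGR2, acts through JAK1 and JAK2 on genes with gamma-activated sites, with IRF1 as a second wave. In mice, blood stem cells respond to both interferons by entering the cell cycle, and Sca-1, a marker of the KSL sort, is itself induced by interferon.

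The interferon-stimulated genes had, as a group, a median close to that of all genes, while single members stood well apart in opposite directions. Differences are log2 Nrf2 KO minus log2 wild-type intensity. The 32 members had a median difference of 0.00, against 0.01 over all 19938 genes, with 15 members above 0, 16 below and Oasl1 at the same value on both arrays. At least 1.5-fold apart were 5 of the 32 members, or 15.6%, where 4.89% of all measured genes were that far apart. The RNA-cleavage activator Oas1a, the kinase Eif2ak2 and the ISG15 protease Usp18 were higher in Nrf2 KO cells, and Ifit3 and Irgm1 were lower. Of all measured genes, 1.74% were higher by that size and 3.15% were lower by it. Among the 9970 genes at or above the median level over genes, where 28 of the 32 members stood, 6.64% were that far apart in either direction. No member reached 2-fold, a size that 0.913% of all genes reached.

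**Figure D1:**
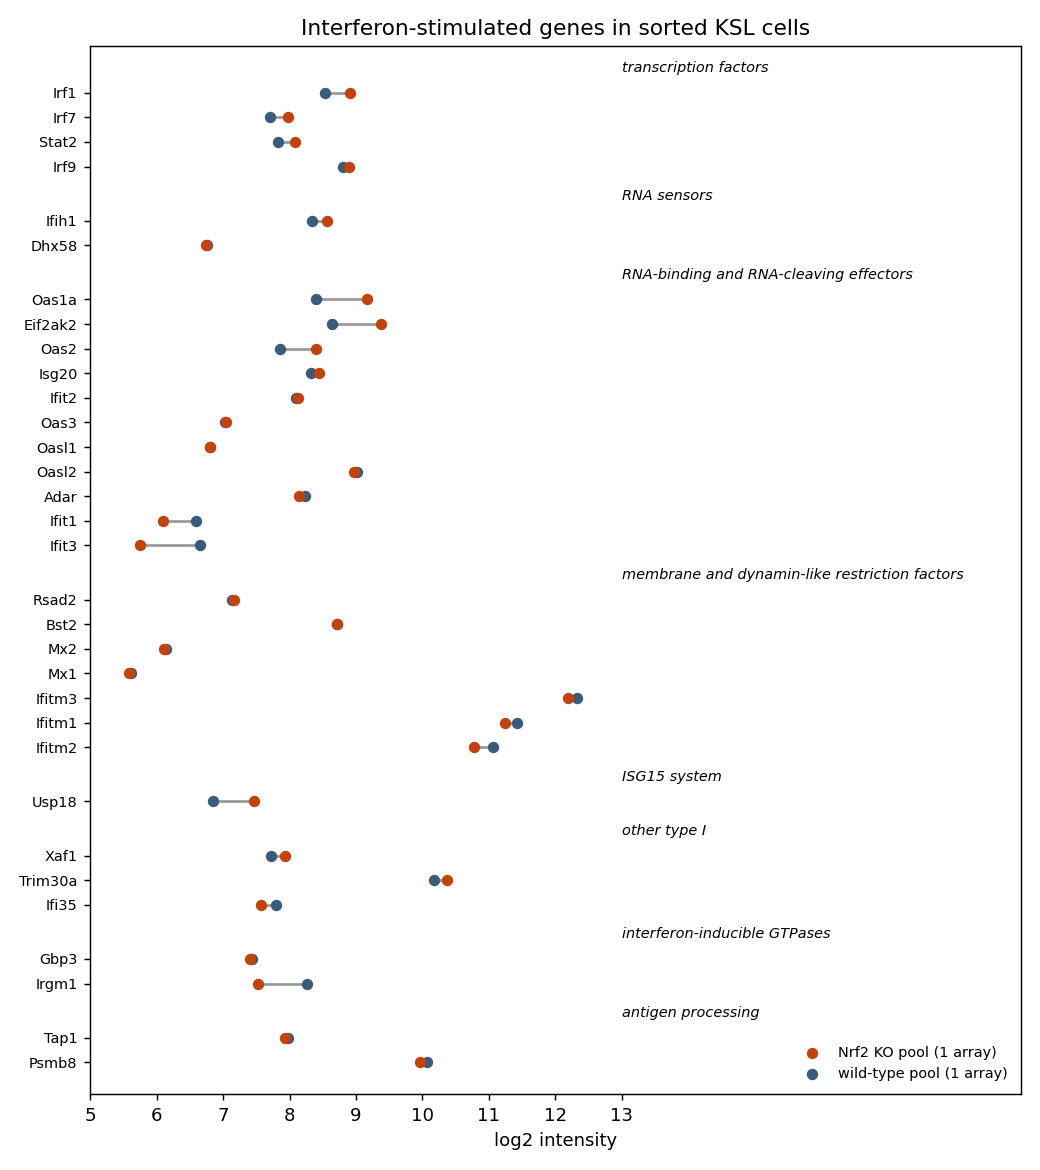
Log2 intensity (horizontal axis) of the 32 measured interferon-stimulated genes in the Nrf2 KO pool (orange) and the wild-type pool (blue), 1 array each, grouped by role. The longest bars belong to Ifit3, Oas1a, Eif2ak2, Irgm1 and Usp18, and the values of most other genes lie close together. Levels of different genes come from different probes and are not comparable.

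Some facts of the arrays bear on these values. The middle 95% of all genes lay between −0.64 and 0.52, with an SD of 0.29. Among 777 genes measured by exactly 2 probe sets, the error that the choice of probe set adds to a difference had an SD of 0.31. Of the 32 members, 28 had a mean level at or above the median over genes of 6.57, and the 4 below it were Ifit1, Ifit3, Mx1 and Mx2. Nfe2l2 itself stood at 9.07 in Nrf2 KO cells and at 9.16 in wild-type cells; where the deletion lies within the gene is not in the labels, so this probe set may not check the genotype. The sort marker Kit read 11.21 in Nrf2 KO and 10.93 in wild-type cells, whereas no probe set of its own measured Ly6a, which encodes Sca-1. Markers of neutrophils, cells that a lineage-negative sort should leave out, were present and unequal. Of 14 markers, 13 were lower in Nrf2 KO cells, and the median difference of the list was −1.46. Levels ran from 5.36 to 11.30 in Nrf2 KO and from 4.90 to 12.25 in wild-type cells. The exception was Ly6g, at 5.41 in Nrf2 KO and 4.90 in wild-type cells, with a mean level below the median over genes. The part of neutrophils in the results below was not tested.

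Of the 4 transcription factors among the members, 0 were 1.5-fold apart, and their differences lay between 0.09 and 0.37. Irf1, the factor of the interferon gamma response, averaged 8.91 in Nrf2 KO and 8.54 in wild-type cells, a difference of 0.37. Its 2 probe sets did not give the same size: one read 9.19 in Nrf2 KO against 8.57 in wild-type cells and the other 8.64 in Nrf2 KO against 8.51 in wild-type cells, differences of 0.62 and 0.13. Taken alone, the first would put Irf1 past the 1.5-fold size. Irf7, which amplifies the production of interferon alpha, read 7.97 in Nrf2 KO and 7.70 in wild-type cells, a difference of 0.27. Stat2, which joins IRF9 in the type I response, read 8.08 in Nrf2 KO and 7.83 in wild-type cells, a difference of 0.25. Irf9 read 8.90 in Nrf2 KO and 8.80 in wild-type cells, a difference of 0.09. All 4 averaged values lay inside the middle 95% of all genes.

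The cytosolic RNA sensors were close to level. Ifih1, which encodes the long double-stranded RNA sensor MDA5, read 8.57 in Nrf2 KO and 8.34 in wild-type cells. Dhx58, which encodes its relative LGP2, read 6.75 in Nrf2 KO and 6.76 in wild-type cells.

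The effectors that bind or cut RNA held the widest range, and members of one family went apart. Oas1a, an oligoadenylate synthetase that activates RNase L, read 9.16 in Nrf2 KO against 8.40 in wild-type cells. This was 1.70-fold higher in Nrf2 KO cells, a log2 difference of 0.76 that exceeded those of 99.2% of all genes. A further probe set named Oas1a together with Oas1g and was left out. Oas2, in the same gene cluster on chromosome 5, read 8.41 in Nrf2 KO against 7.85 in wild-type cells, 1.47-fold higher and just under the 1.5-fold size. Oas3, also of this cluster, was level at 7.05 in Nrf2 KO and 7.03 in wild-type cells. The related Oasl1 read 6.80 in both pools, and Oasl2 read 8.97 in Nrf2 KO and 9.01 in wild-type cells. Within the family, Oas1a thus passed the 1.5-fold size, Oas2 missed it narrowly, and Oas3, Oasl1 and Oasl2 were level.

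Eif2ak2, which encodes PKR, the kinase that halts translation on double-stranded RNA, was the next highest member. It read 9.37 in Nrf2 KO against 8.63 in wild-type cells, 1.67-fold higher in Nrf2 KO cells. Adar, which edits adenosine in double-stranded RNA and keeps PKR from sensing self RNA, read 8.15 in Nrf2 KO and 8.24 in wild-type cells. Isg20, an RNA exonuclease, read 8.44 in Nrf2 KO and 8.32 in wild-type cells. Neither Adar nor Isg20 differed by more than the SD over all genes.

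The IFIT proteins bind viral RNA, and 1 of their 3 genes, Ifit3, was at least 1.5-fold lower in Nrf2 KO cells. Ifit3 read 5.75 in Nrf2 KO against 6.65 in wild-type cells, 1.86-fold lower in Nrf2 KO cells, the largest difference among the 32 members. Ifit1 read 6.09 in Nrf2 KO against 6.60 in wild-type cells, 1.42-fold lower and short of the 1.5-fold size. Both had mean levels under the median over genes. Ifit2 read 8.13 in Nrf2 KO and 8.10 in wild-type cells. The 3 genes lie in a cluster on chromosome 19.

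The ISG15 system was represented by Usp18 alone, the protease that removes ISG15 from proteins and also damps signalling at the type I receptor. It read 7.46 in Nrf2 KO against 6.84 in wild-type cells, 1.53-fold higher in Nrf2 KO cells and only just past the 1.5-fold size.

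Restriction factors at membranes were level or slightly lower in Nrf2 KO cells. The 7 genes had a median difference of −0.03, with 6 below 0 and none 1.5-fold apart. The IFITM proteins block the fusion of viruses with cell membranes and are known to be high in stem cells. Ifitm1 averaged 11.24 in Nrf2 KO and 11.42 in wild-type cells over 2 probe sets, which gave differences of −0.16 and −0.20. Ifitm2 averaged 10.78 in Nrf2 KO and 11.06 in wild-type cells over 3 probe sets, which gave −0.25, −0.14 and −0.44. Ifitm3 read 12.19 in Nrf2 KO and 12.33 in wild-type cells. All 6 of these probe sets were lower in Nrf2 KO cells, by less than the SD over all genes in 5 of the 6. The 3 IFITM genes are close paralogues, and cross-hybridisation between their probes was not tested.

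Bst2, which encodes tetherin and holds budding virus at the cell surface, read 8.71 in Nrf2 KO and 8.72 in wild-type cells; its sign turned with quantile normalization and with loess. Rsad2, which encodes the antiviral enzyme viperin, read 7.17 in Nrf2 KO and 7.13 in wild-type cells. The dynamin-like GTPases also showed no gap, with Mx1 at 5.58 in Nrf2 KO and 5.61 in wild-type cells and Mx2 at 6.12 in Nrf2 KO and 6.14 in wild-type cells. Mx1 is known to be defective in most inbred mouse strains. The other 3 type I induced genes were within 1.5-fold. Trim30a, a TRIM family protein that restrains Toll-like receptor signalling in the mouse, read 10.36 in Nrf2 KO and 10.18 in wild-type cells. Xaf1, whose protein binds the apoptosis inhibitor XIAP, read 7.93 in Nrf2 KO and 7.72 in wild-type cells, and Ifi35 read 7.57 in Nrf2 KO and 7.80 in wild-type cells.

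Among the genes best known from the interferon gamma response, Irgm1 was the only measured member at least 1.5-fold apart. Irgm1, a GTPase that acts on vacuoles of intracellular pathogens and in autophagy, read 7.53 in Nrf2 KO against 8.26 in wild-type cells. It was 1.66-fold lower in Nrf2 KO cells, and 1.85% of all genes lay at or below its difference of −0.73. In mice, loss of Irgm1 is known to make blood stem cells cycle and lose function. The guanylate-binding protein gene Gbp3 was level, at 7.41 in Nrf2 KO and 7.44 in wild-type cells, and its sign turned with quantile normalization and with loess. The antigen processing genes were level too: the immunoproteasome subunit Psmb8 read 9.97 in Nrf2 KO and 10.07 in wild-type cells, and the peptide transporter Tap1 read 7.94 in Nrf2 KO and 7.98 in wild-type cells.

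Set apart by inducer, the classes had medians close to each other. The 27 type I induced members had a median difference of 0.02 and ranged from −0.90 to 0.76. At least 1.5-fold apart were 4 of the 27, or 14.8%, with 3 higher and 1 lower. The 5 type II induced members had a median of −0.04 and ranged from −0.73 to 0.37. Only 1 of the 5, or 20%, was at least 1.5-fold apart, and it was lower. Of all measured genes, 4.89% were that far apart, 1.74% higher and 3.15% lower. The class medians differed by 0.06, which is small beside the SD of the members within each class, 0.35 for type I and 0.40 for type II.

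**Figure D2:**
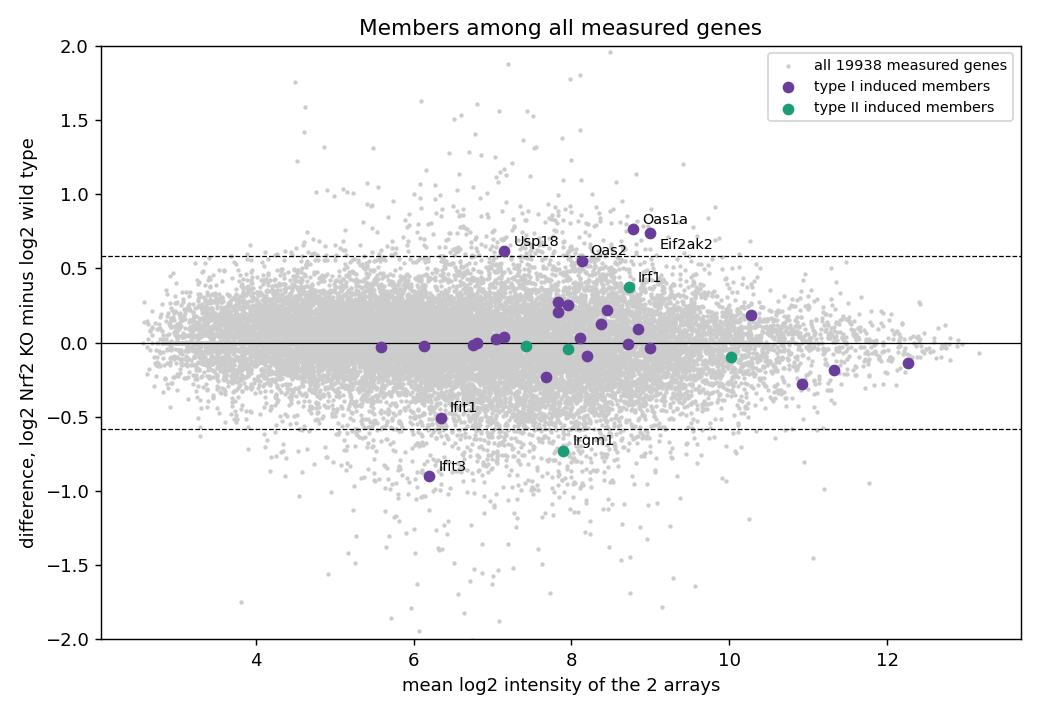
Difference between the pools (vertical axis, log2 Nrf2 KO minus log2 wild type) against the mean log2 intensity of the 2 arrays (horizontal axis) for all 19938 measured genes (grey) and for the type I (purple) and type II (green) induced members. Dashed lines mark 1.5-fold, and 20 genes beyond the vertical range are not drawn. Oas1a, Eif2ak2 and Usp18 lie above the upper line, Irgm1 and Ifit3 below the lower one.

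Promoter sequences are shown to set the letters near the starts side by side. They come from members past the 1.5-fold size, from Ifit1, which fell short of it, and from Rsad2, which was level. They are the 250 bases before the RefSeq start of 5 genes in GRCm38.p6, read on the gene's own strand: Oas1a, higher in Nrf2 KO cells, at chr5:120907526-120907775 (minus strand), Rsad2, level, at chr12:26456453-26456702 (minus strand), Ifit1, 1.42-fold lower, at chr19:34640639-34640888 (plus strand), Ifit3, 1.86-fold lower, at chr19:34583279-34583528 (plus strand), and Irgm1, 1.66-fold lower, at chr11:48871421-48871670 (minus strand). Capitals mark each match to GAAA, any 2 bases and GAAA, or to TTTC, any 2 bases and TTTC, its form on the other strand, the letters at the core of the interferon-stimulated response element.
Oas1a: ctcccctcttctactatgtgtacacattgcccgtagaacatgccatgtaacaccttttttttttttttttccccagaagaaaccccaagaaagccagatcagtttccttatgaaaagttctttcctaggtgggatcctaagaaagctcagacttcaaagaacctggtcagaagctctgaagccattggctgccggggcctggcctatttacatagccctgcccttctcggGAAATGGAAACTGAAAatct
Rsad2: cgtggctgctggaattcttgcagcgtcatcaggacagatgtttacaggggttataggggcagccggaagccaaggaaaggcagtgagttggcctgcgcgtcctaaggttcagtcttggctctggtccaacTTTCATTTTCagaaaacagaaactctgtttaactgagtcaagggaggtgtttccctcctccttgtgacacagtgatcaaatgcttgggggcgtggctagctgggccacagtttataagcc
Ifit1: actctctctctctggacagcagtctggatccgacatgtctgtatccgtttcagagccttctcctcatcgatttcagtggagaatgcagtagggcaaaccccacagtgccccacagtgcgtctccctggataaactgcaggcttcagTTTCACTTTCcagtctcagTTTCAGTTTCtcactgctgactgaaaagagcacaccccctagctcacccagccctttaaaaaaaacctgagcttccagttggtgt
Ifit3: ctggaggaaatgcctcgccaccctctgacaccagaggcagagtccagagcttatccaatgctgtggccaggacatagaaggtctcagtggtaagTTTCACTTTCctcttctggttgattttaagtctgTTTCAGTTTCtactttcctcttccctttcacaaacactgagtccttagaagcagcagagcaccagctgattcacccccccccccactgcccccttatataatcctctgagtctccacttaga
Irgm1: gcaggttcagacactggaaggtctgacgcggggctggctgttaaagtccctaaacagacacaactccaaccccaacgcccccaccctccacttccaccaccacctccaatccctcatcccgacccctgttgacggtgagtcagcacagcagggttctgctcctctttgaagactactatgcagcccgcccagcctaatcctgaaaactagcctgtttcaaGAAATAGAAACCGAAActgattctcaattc

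In Oas1a and in Irgm1, 2 matches overlapped and lay just before the start, with first bases at −20 and −14 in Oas1a and at −30 and −24 in Irgm1. Ifit1 had matches at −104 and −85 and Ifit3 at −156 and −122, while Rsad2 had 1 match, at −120. All the genes shown held a match, so they cannot show whether a match goes with the direction of a difference. In Eif2ak2 the match began at base 19 after the start.

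Windows of 250 bases before to 50 after the start were available for 31 of the 36 genes, and 18 of the 31, or 58.1%, held a match on either strand. Of all 27025 genes with a window, 3.99% held one. By class, the match was found in 13 of 23 type I and 5 of 8 type II induced genes. Among measured members, the 14 with a match had a median difference of 0.01 and ranged from −0.90 to 0.76, and 4 of them were at least 1.5-fold apart. The 13 without a match had a median of 0.00 and ranged from −0.23 to 0.37, with 0 at least 1.5-fold apart. Of all measured genes, 4.89% were that far apart, and the share among all genes with a match was not computed. Sets of 14 and 13 genes are too small to show whether a match goes with a difference. The remaining gene past 1.5-fold, Usp18, had no window, as had Dhx58, Mx1, Mx2 and Oas2. A match describes the letters in these windows and is not a site of binding.

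Upstream of these genes, the measured receptor chains and kinases of both interferon pathways were within 1.5-fold. Ifnar1 read 8.23 in Nrf2 KO and 8.48 in wild-type cells, a difference of −0.25, and Ifnar2 read 10.56 in Nrf2 KO and 10.50 in wild-type cells. For interferon gamma, the receptor chain Ifngr1 read 9.63 in Nrf2 KO and 9.49 in wild-type cells, and Ifngr2 read 8.23 in Nrf2 KO and 8.21 in wild-type cells. The kinases Jak1, Jak2 and Tyk2 differed by 0.00, 0.04 and −0.10. Of 20 measured genes of receptors and signalling, 1, or 5.0%, was at least 1.5-fold apart, a share near the 4.89% of all genes. This was Socs3, a feedback inhibitor of cytokine signalling, at 6.82 in Nrf2 KO against 7.48 in wild-type cells. Their median difference was 0.03.

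Of 8 measured interferon genes themselves, 6 had mean levels below the median over genes. Only 1 of the 8, or 12.5%, was at least 1.5-fold apart, where 4.89% of all genes were. Ifnb1, which encodes interferon beta and is named here after its values were seen, read 4.45 in Nrf2 KO against 5.46 in wild-type cells, 2.01-fold lower in Nrf2 KO cells at a very low level. Ifng, which encodes interferon gamma, was also below the median level, and its difference was 0.24. Sensors of nucleic acid and their adaptors had a median of −0.03 over 12 genes. Only 1 of the 12, or 8.33%, was at least 1.5-fold apart, where 4.89% of all genes were. This was Tlr7, the endosomal receptor for single-stranded RNA, at 7.49 in Nrf2 KO against 6.22 in wild-type cells, 2.41-fold higher in Nrf2 KO cells.

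Further interferon-induced genes were taken from lists written with earlier results known. Of 31 other type I induced genes, 19 were higher and 11 lower in Nrf2 KO cells, with a median of 0.14 and a mean of 0.07. The median was 0.01 over all measured genes. It was −0.02 over genes at or above the median level, where 28 of the 31 stood. Only 1 of the 31, or 3.23%, was at least 1.5-fold apart, a share near the 4.89% of all genes. This was Slfn1, a schlafen family gene, at 6.12 in Nrf2 KO against 7.35 in wild-type cells, 2.35-fold lower. Of 20 other type II induced genes, 3, or 15.0%, were at least 1.5-fold apart, where 4.89% of all genes were, and the median of the 20 was 0.04.

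The 3 genes included related chemokines that went opposite ways. Cxcl10 read 6.07 in Nrf2 KO against 8.47 in wild-type cells, 5.29-fold lower in Nrf2 KO cells. Cxcl9, a ligand of the same receptor CXCR3 that is named here after its values were seen, read 6.83 in Nrf2 KO against 5.84 in wild-type cells, 1.99-fold higher at a mean level below the median over genes. The guanylate-binding protein gene Gbp5 read 7.13 in Nrf2 KO against 6.43 in wild-type cells, 1.62-fold higher.

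**Figure D3:**
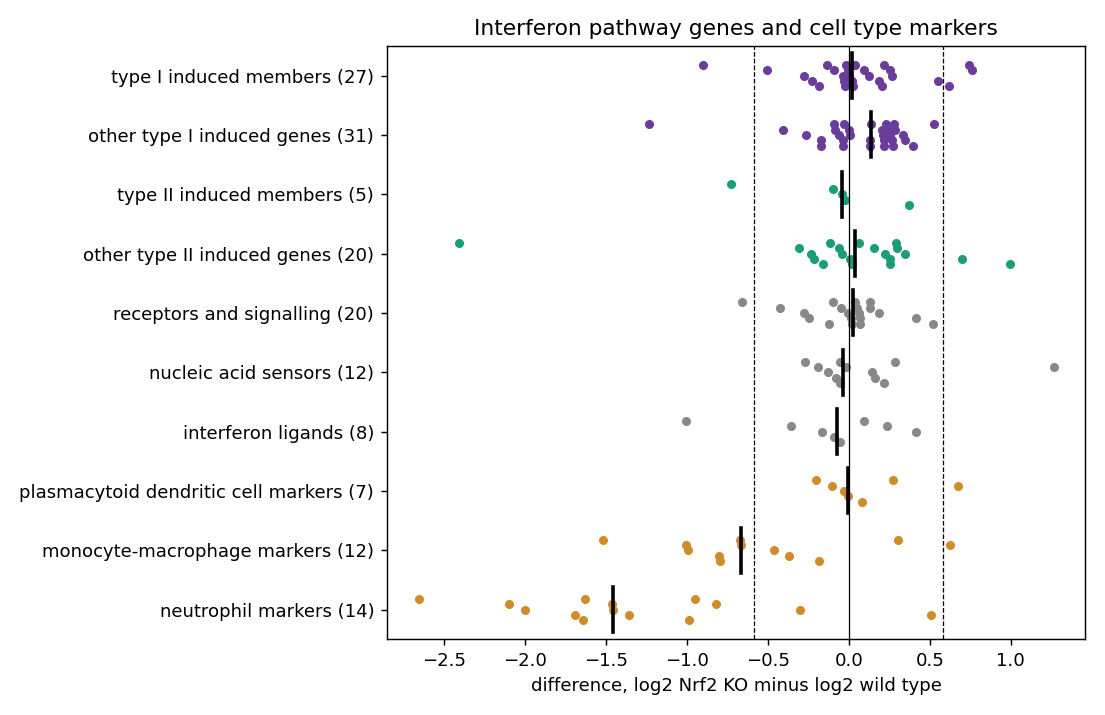
Differences (horizontal axis, log2 Nrf2 KO minus log2 wild type) of the interferon-stimulated members, other interferon pathway genes and cell type markers, 1 point per gene, with the number of genes in brackets. Black bars are medians and dashed lines mark 1.5-fold. The interferon lists have medians between −0.07, for the interferon ligands, and 0.14, for the other type I induced genes. The neutrophil and monocyte-macrophage markers have medians of −1.46 and −0.67.

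Neutrophil and monocyte-macrophage markers were unequal between the pools, while those of plasmacytoid dendritic cells had a median near 0. Monocyte-macrophage markers were lower in Nrf2 KO cells in 10 of 12 cases, with a median of −0.67 and levels of 5.13 to 9.31 in Nrf2 KO and 4.82 to 8.68 in wild-type cells. Among them, the chemokine Ccl6 and Ms4a6c were 2.86-fold and 2.01-fold lower. The 2 that were higher in Nrf2 KO cells were Cd68, by 1.55-fold, and Vcan, with a difference of 0.31. Summed as linear intensities, the 12 markers came to 1774 in Nrf2 KO and 2295 in wild-type cells, and the 14 neutrophil markers to 7040 in Nrf2 KO and 16315 in wild-type cells. Such sums give most weight to the genes of highest intensity, which depends on the probes too. The neutrophil genes Retnlg and Lcn2 were 6.31-fold and 4.27-fold lower. Markers of plasmacytoid dendritic cells, the main producers of interferon alpha, had a median of −0.01 over 7 genes. Their levels were 5.98 to 9.78 in Nrf2 KO and 6.16 to 9.70 in wild-type cells, and 3 had mean levels below the median over genes. Bst2, itself an interferon-stimulated member, is 1 of the 7, and the median is its own value. The defining marker Siglech read 6.44 in Nrf2 KO and 6.16 in wild-type cells, below the median level over genes, and Ly6d was 1.60-fold higher in Nrf2 KO cells. In pooled RNA, fewer cells of a type and less RNA per cell cannot be told apart, and the part of these cells in the lower Ifit3, Irgm1 and Cxcl10 or the higher Oas1a, Eif2ak2 and Usp18 was not tested.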

How the data were processed

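Per the labels' protocols, RNA of each pool was isolated with RNeasy micro kits and amplified with NuGEN Ovation kits before it went on an Affymetrix Mouse Gene ST 1.0 array. The deposited file gives a log2 intensity for each probe set; its base was inferred from the range of the values, which reached 13.7 in Nrf2 KO and 13.8 in wild-type cells. The submitters' processing notes name Partek; normalization is not given in the sources used here. Ranked by size, values of the arrays lay within 0.0866 of each other, so a shift of all genes in 1 direction may have been removed. Amplification from few cells can distort single genes.

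Of 28853 probe sets, 21789 had 1 gene symbol, 1621 several and 5443 none, and only the first were used, through the platform annotation, of which 21698 matched a RefSeq gene by Entrez ID. Probe sets of a gene were averaged. The difference is log2 Nrf2 KO minus log2 wild type, with no further normalization and no level filter. With 1 array per genotype no test was possible, and genes were counted at a size of 1.5-fold.

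The members, lists, classes and alternatives were chosen with earlier results of these data known. Named were all members, Nfe2l2, Kit, Ly6a, the interferon receptors and their kinases, up to 4 genes of each pathway list that were at least 1.5-fold apart and at or above the median level, and from the neutrophil, monocyte-macrophage, plasmacytoid dendritic, B, T and NK, erythroid and KSL marker lists the 2 with the largest difference, where values bear on the text. Ly6g, Cd68 and Vcan were also named, after their values were seen, as the markers of their lists that were higher in Nrf2 KO cells. Alternatives were other scalings, level filters, a 2-fold size, single probe sets, means, and lists without some members. Promoters came from RefSeq (GRCm38.p6), with all 36 members matched by symbol. The averaging, counting and scaling steps were run on simulated data, and the list and promoter steps were not. Its noise was smaller than the spread seen here, so it does not bear on genes near the 1.5-fold size. Computation used Python 3.11.15 with numpy 2.4.6, pandas 2.3.3, statsmodels 0.14.6 and matplotlib 3.10.9.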

Additional observations from a re-analysis of the deposited data

How the results depend on the processing

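No paired analysis was possible because each genotype had 1 array, and no array could be left out. Of 98 recomputed medians and counts, 84 stayed within the error that the choice of probe set gives (its SD over the square root of the number of genes), or within 1.5 times for counts. That error takes genes as independent and applies a rule for means to medians. It used the SD of 0.31. A robust SD of the same error was 0.18, with which fewer may have stayed. With the probe set of highest mean, 4 members were at least 1.5-fold higher, as Irf1 joined Oas1a, Eif2ak2 and Usp18. Raising the level filter to the median over genes left 1 member at least 1.5-fold lower, since Ifit3 was below it, and put the median of the 2 remaining interferon genes at 0.25 with 0 at least 1.5-fold apart. At the 75th percentile, 0 members were at least 1.5-fold lower, and the type II median was 0.14 over 2 genes. The sensor median was then 0.064 over 4 genes and the median of other type I induced genes 0.22 over 19. The receptor, sensor and other type I and type II lists each held 0 genes at least 1.5-fold apart. Fewer genes entered, and no interferon gene was left, so the ligand count of 0 is empty. At 2-fold, 0 members were called higher and 0 lower. The 5 members at least 1.5-fold apart had 1 probe set each, so choosing a single probe set could not alter them. Under the scalings 0 of the 5 changed sign, which is a weak check. Centring, quantile normalization and loess shifted the median over all genes by only −0.009, −0.0005 and −0.003. The 128 recomputed member differences moved by less than the probe-set SD of 0.31, but only Ifitm1, Ifitm2 and Irf1 had more than 1 probe set. The signs of Oasl2, Gbp3 and Bst2, all within 0.034 of 0, turned under quantile normalization. Array intensity gives no read depth, and signal over background was not assessed.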

Other observations

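Gamma-activated sites were looked for in the same promoter windows by the letters TTC, any 3 bases and GAA, which read the same on both strands. Of 31 interferon-stimulated genes with a window, 12, or 38.7%, held a match, against 9.55% of the 27025 genes with a window. The match was present in 8 of 23 type I and 4 of 8 type II induced genes. Among measured members, the 10 with a match had a median difference of 0.01 and the 17 without one a median of 0.00. Each set held 2 genes at least 1.5-fold apart, where 4.89% of all measured genes were.

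The remaining marker lists gave small medians. B lineage markers had a median difference of −0.02 over 6 genes, with Cd79b, a chain of the B cell receptor, at 7.38 in Nrf2 KO and 8.17 in wild-type cells and the transcription factor Ebf1 at 5.84 in Nrf2 KO and 5.28 in wild-type cells. T and NK markers had a median of −0.12 over 8 genes, with Gzma at 4.15 in Nrf2 KO and 5.02 in wild-type cells and Cd3d 1.54-fold lower. Erythroid markers had a median of 0.04 over 5 genes, with the transferrin receptor Tfrc at a difference of 0.27 and Klf1 at one of −0.25. Stem and progenitor markers had a median of 0.12 over 8 genes, with Slamf1 1.63-fold higher in Nrf2 KO cells and Mecom at a difference of −0.45. Of the genes named here, Ebf1, Gzma, Cd3d, Klf1 and Slamf1 had mean levels below the median over genes.

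Oasl1 was 1 of 474 genes, 2.38% of those measured, whose deposited values were identical on the 2 arrays.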
